A study of Mus musculus with 8 samples.

Results

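The collagen genes outside the collagen VI family were followed in epididymal white adipose tissue of the mouse, a fat pad that lies along the epididymis. A row of the expression table was taken where the platform annotation gave exactly 1 gene symbol, the symbol had the form of a collagen chain (Col, a number, the letter a, a number) and it did not start with Col6a. This found 38 genes among the 19310 genes with such a row, and each of the 38 had a single row, so no choice between rows was needed. The genes were chosen by name, not by their values. They were read in 4 classes: 11 fibrillar chains, 8 chains of basement membranes, 9 FACIT chains (collagens that sit on the surface of fibrils) and 10 others.

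The arrays compared 4 samples labelled as Rev-erb alpha KO with 4 labelled as wild type (WT). Both groups were male C57BL/6 mice of 12 to 15 weeks on a standard diet under 12 h of light and 12 h of dark, and fat was taken at Zeitgeber time 10, that is, 10 h after the lights came on. Rev-erb alpha, encoded by Nr1d1, is a nuclear receptor of the circadian clock that represses transcription. The labels give neither the knockout allele nor whether it was limited to a cell type, and they do not tie samples to individual mice; p-values therefore rest on the spread between samples, which may be technical. Values are log2 expression values as deposited, and a difference is always the KO mean minus the WT mean.

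Collagens are trimers of chains that wind around each other in a triple helix. Collagens I, III and V build the fibrils of connective tissue, collagen IV forms the sheet of the basement membrane, which in fat surrounds every adipocyte and every vessel, and FACIT collagens decorate fibrils. In adipose tissue fibroblast-like progenitor cells are a major source of fibrillar collagen, while endothelial cells, mural cells and adipocytes also make basement membrane chains.

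The 8 arrays were alike in their overall distribution, with medians of 5.90 to 5.95 log2. The Nr1d1 row read 9.47, 9.11, 9.18 and 9.83 in the WT arrays and 9.56, 9.28, 8.90 and 8.80 in the KO arrays, which overlap (difference -0.26, SE 0.187, limma adjusted p = 0.479). Which part of the transcript this row reads is not given in the sources used here, so it checks nothing about the genotype, and KO below means the arrays labelled KO. Adipocyte markers were among the brightest rows, with a median percentile of 99.8 over 14 measured markers, and 9 epididymis markers were dim (median percentile 17.7). On the first principal component of all tested rows (43.2% of the variance) the WT arrays lay at -15.0 to -12.2. KO arrays 1 and 2 lay at 9.41 and 9.34 and KO arrays 3 and 4 further out, at 19.0 and 17.6. On the second (14.7%) KO arrays 3 and 4 were at -11.4 and -5.91 against 12.8 and 10.7 for KO arrays 1 and 2, and WT array 1 was at -9.93. The values of all 4 KO arrays are therefore given one by one.

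In the KO arrays 10 of the 38 collagen genes rose and none fell. The 10 were the fibrillar genes Col5a3, Col1a1, Col5a2, Col5a1 and Col3a1, the basement membrane genes Col4a2, Col4a1, Col18a1 and Col4a4, and Col8a1, a short-chain collagen of vessel walls. Their differences ran from 0.24 log2 for Col4a4 to 1.02 log2 for Col5a3, or 1.18-fold to 2.03-fold. With limma and Benjamini-Hochberg adjustment over all 20748 rows, 26.3% of the 38 genes were higher at an adjusted p under 0.05, against 3.81% of all rows. For lower values the count was 0 of 38 (also 0 at an unadjusted p under 0.05), against 3.59% of all rows. The 4 KO arrays lay above all 4 WT arrays for the same 10 genes, a pattern that 7.18% of all rows showed. In bulk tissue, more cells of one type and more RNA per cell cannot be told apart.

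**Figure D1:**
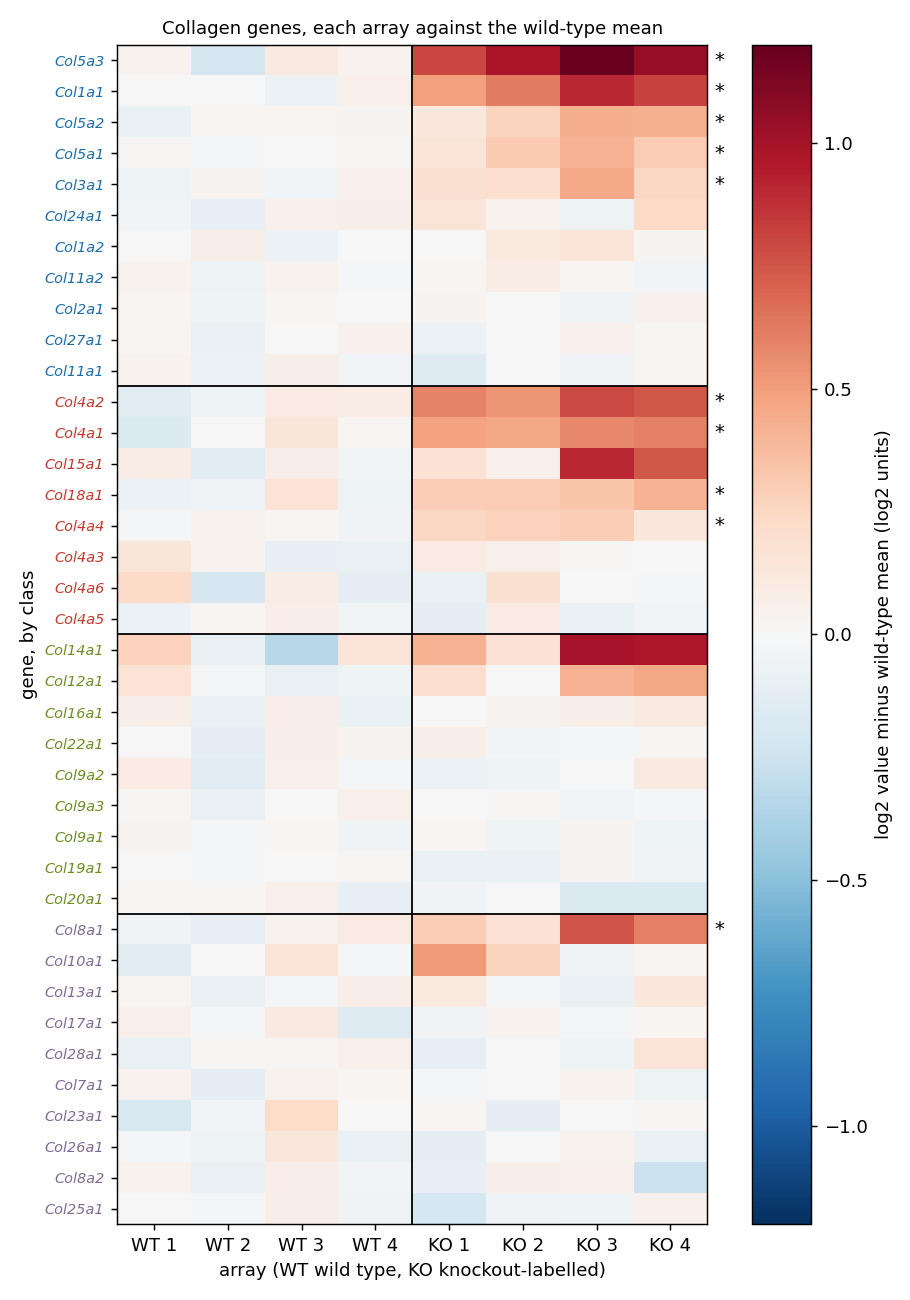
Each row is 1 of the 38 collagen genes, grouped and coloured by class (blue fibrillar, red basement membrane, green FACIT, purple other), and each column 1 array. Colour gives the log2 value minus the mean of the 4 WT arrays, and an asterisk marks the 10 genes with a limma adjusted p under 0.05. The KO columns are red for these genes and close to white for most others, while Col14a1 and Col15a1 are red in KO arrays 3 and 4 and carry no asterisk.

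Most of the other collagen genes differed little. Of the 28 that did not pass, 24 had a difference smaller than 0.1 log2 in either direction, and the median over all 38 genes was 0.03 log2, against -0.01 over all rows. The median thus says little about the 10, whose own median was 0.40 log2. Brightness was one feature that went with the calls. With all rows split by mean level into 3 equal parts, 7 of the 10 collagen genes in the brightest part were higher, against 8.23% of the rows there, and among the 26 in the middle part 3 were higher, against 2.75%. Col10a1 and Col19a1 were the 2 collagen genes in the dimmest part, where 0.463% of rows were higher, and neither passed.

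**Figure D2:**
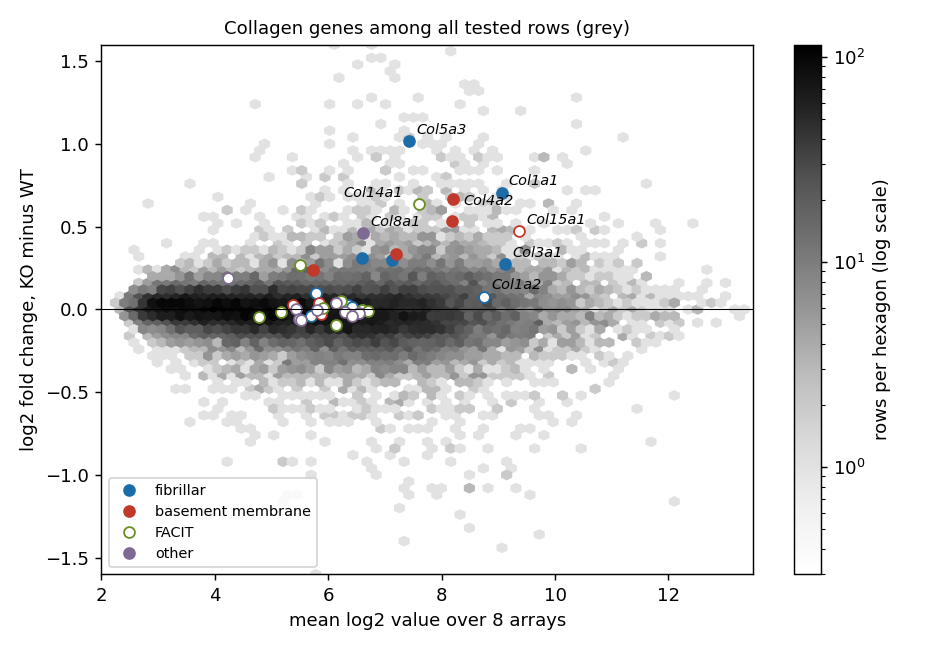
Mean log2 value over the 8 arrays (horizontal) against the log2 difference between KO and WT (vertical), with all tested rows as grey hexagons and the 38 collagen genes as circles coloured by class. Filled circles passed at an adjusted p under 0.05; rows with differences beyond 1.6 log2 lie outside the axes. The filled circles lie between 5.74 and 9.12 log2.

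Among the fibrillar collagens, Col5a3 showed the largest rise of the 38 genes. It encodes the alpha 3 chain of collagen V, a minor fibrillar collagen that helps to start fibrils. It read 6.96, 6.71, 7.02 and 6.96 log2 in the WT arrays and 7.72, 7.89, 8.15 and 7.96 in the KO arrays. Every KO value was well above the highest WT value, and KO array 3 was the highest. The means were 6.91 ± 0.14 and 7.93 ± 0.18 (SD, n = 4 each), a 2.03-fold difference (1.02 log2, SE 0.0965, limma adjusted p = 0.000248).

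The other collagen V chains, Col5a1 and Col5a2, rose by less. Col5a1 read 6.98, 6.95, 6.97 and 6.98 in WT and 7.13, 7.28, 7.39 and 7.27 in KO (0.30 log2, SE 0.0605, adjusted p = 0.0151). Col5a2 read 6.37, 6.47, 6.47 and 6.48 in WT and 6.58, 6.71, 6.88 and 6.87 in KO (0.31 log2, SE 0.0734, adjusted p = 0.0283). The WT and KO means (± SD, n = 4 each, here and below) were 6.97 ± 0.017 and 7.27 ± 0.11 for Col5a1 and 6.45 ± 0.052 and 6.76 ± 0.14 for Col5a2. Neither gene overlapped between the groups, although KO array 1 was close to WT in both. The Col5a2 call was lost when any WT array or KO array 3 or 4 was left out (limma adjusted p at most 0.0832), whereas Col5a1 passed in all 8 such fits.

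The chains of collagen I, the main collagen of fibrils, gave different calls. Col1a1 read 8.71, 8.71, 8.63 and 8.77 log2 in WT and 9.20, 9.32, 9.61 and 9.51 in KO, a 1.63-fold difference (0.71 log2, SE 0.0857, adjusted p = 0.00100). Col1a2, which encodes its partner chain in the usual trimer, read 8.70, 8.78, 8.64 and 8.71 in WT and 8.72, 8.83, 8.86 and 8.74 in KO. The means were 8.71 ± 0.057 and 9.41 ± 0.18 for Col1a1 and 8.71 ± 0.060 and 8.79 ± 0.070 for Col1a2. For Col1a1 the groups were far apart, and for Col1a2 they overlapped. The Col1a2 difference was 0.08 log2 (SE 0.057, adjusted p = 0.485) with a 95% interval of -0.05 to 0.20, which does not reach the lower bound of Col1a1 (0.52 to 0.90). The difference between the 2 chains within each array was -0.07 to 0.06 log2 in WT and 0.48 to 0.77 in KO, a change of 0.63 log2 (two-sided exact permutation p = 0.0286, the smallest that 4 against 4 arrays can give, and 0.0527 adjusted over the 24 chain pairs compared). A row's level depends on its own probes, so this says nothing of the amounts of the chains.

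Col3a1, the chain of collagen III, which forms fibrils together with collagen I, rose by a smaller step. It read 8.92, 9.02, 8.95 and 9.04 in WT and 9.17, 9.19, 9.43 and 9.23 in KO (0.27 log2, SE 0.0674, adjusted p = 0.0352). With means of 8.98 ± 0.054 and 9.26 ± 0.12, the groups did not overlap but lay close together. The call was lost with quantile normalization (adjusted p = 0.0517) and without any 1 of the WT arrays or KO array 3 or 4 (adjusted p at most 0.0884).

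The remaining fibrillar genes did not pass. They were the cartilage collagen genes Col2a1 (0.01 log2), Col11a1 (-0.04) and Col11a2 (0.02), and Col24a1 (0.10) and Col27a1 (-0.00), the divergent members of the fibrillar family. Their adjusted p-values lay at 0.498 or above. In all, 5 of 11 fibrillar genes were higher, against 3.81% of all rows, with a class median of 0.10 log2. The markers of chondrocytes and bone, the tissues where collagens II and XI are best known, were dim (median percentile 23.0 over the list) and had 0 of 11 members past the threshold in either direction (median 0.01 log2, levels of 4.52 to 4.58 in WT and 4.49 to 4.58 in KO as means over the list).

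**Figure D3:**
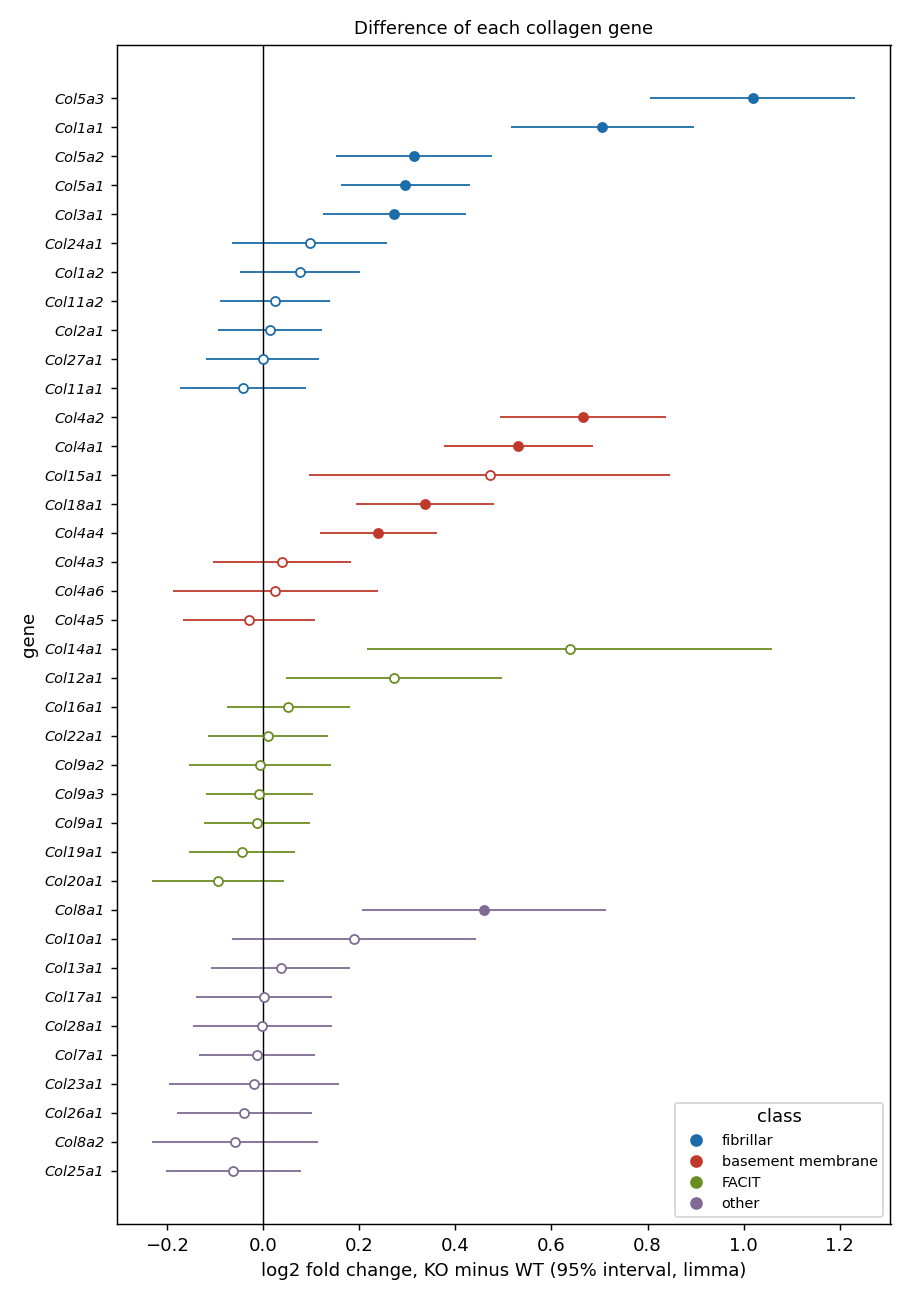
Log2 difference (KO minus WT) of each of the 38 collagen genes with its 95% interval from limma, coloured by class and filled where the adjusted p was under 0.05. Col5a3 and Col1a1 lead the fibrillar genes and Col4a2 and Col4a1 those of basement membranes, while the intervals of Col14a1 and Col15a1 are wide.

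In basement membranes the rise was seen in Col4a1 and Col4a2, which encode the chains of the common collagen IV trimer. Col4a1 read 7.75, 7.91, 8.05 and 7.93 log2 in WT and 8.40, 8.37, 8.49 and 8.51 in KO (1.45-fold, 0.53 log2, SE 0.0704, adjusted p = 0.00170). Col4a2 read 7.72, 7.80, 7.96 and 7.95 in WT and 8.46, 8.39, 8.65 and 8.61 in KO (1.59-fold, 0.67 log2, SE 0.0783, adjusted p = 0.000863). The means were 7.91 ± 0.13 and 8.44 ± 0.068 for Col4a1 and 7.86 ± 0.12 and 8.52 ± 0.12 for Col4a2. In both genes all KO arrays lay above all WT arrays, and WT array 1 was the lowest. Within an array the 2 chains differed by -0.02 to 0.10 log2 in WT and by -0.16 to -0.02 in KO, which overlap, and the change of -0.13 log2 had a two-sided exact permutation p of 0.0571.

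These genes lie on opposite strands of chromosome 8. In the RefSeq promoter table (GRCm38.p6) the first bases of the annotated transcripts overlap, with start sites 21 bases apart, so the region before each start lies inside the other gene. Because the 2 genes rose together, 30 bases of each side are shown, 5′ to 3′ on the strand of the gene, with CCAAT and GC box letters (GGGCGG) on either strand in capitals. Each stretch was cut around a CCAAT match, so a match in both follows from the choice. GC box matches elsewhere in the 2 windows are not shown. The stretch of Col4a1 is at chr8:11312955-11312984 on the minus strand, from -158 to -129 relative to its start, and that of Col4a2 at chr8:11312757-11312786 on the plus strand, from -48 to -19.
Col4a1: gtgcttgcccgggATTGGcgagccaagggg
Col4a2: CCGCCCgaggagctccCCAATttgttggcg

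The other collagen IV chains, which form more restricted trimers, gave a single further rise. Col4a4 read 5.59, 5.66, 5.64 and 5.58 in WT and 5.87, 5.90, 5.92 and 5.75 in KO (0.24 log2, SE 0.0552, adjusted p = 0.0268). The means were 5.62 ± 0.040 and 5.86 ± 0.076. The groups did not overlap, though the step was small, and the call was lost in 6 of the 8 fits that left out 1 array (all but those without WT array 2 or KO array 4, adjusted p at most 0.0773). Its chromosomal neighbour Col4a3 did not pass (0.04 log2, SE 0.0648, adjusted p = 0.786), nor did the X-linked pair Col4a5 (-0.03, adjusted p = 0.838) and Col4a6 (0.02, adjusted p = 0.916).

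Col18a1 and Col15a1 encode the multiplexins, proteoglycan-like collagens at the edge of basement membranes whose end fragments include endostatin. Col18a1 read 6.96, 6.98, 7.19 and 6.97 in WT and 7.32, 7.33, 7.35 and 7.44 in KO (1.26-fold, 0.34 log2, SE 0.0647, adjusted p = 0.0112), with WT array 3 above its group and still below every KO array. Col15a1 read 9.22, 9.00, 9.21 and 9.10 in WT and 9.30, 9.19, 10.04 and 9.88 in KO. The means were 7.02 ± 0.11 and 7.36 ± 0.056 for Col18a1 and 9.13 ± 0.11 and 9.60 ± 0.42 for Col15a1. In Col15a1, KO arrays 3 and 4 were high, array 1 was just above the highest WT array and array 2 lay within the WT range. The Col15a1 difference of 0.47 log2 (SE 0.17) did not pass (adjusted p = 0.129). Of the 8 fits that left out 1 array, Col15a1 passed only in the 1 without KO array 2 (0.61 log2, limma adjusted p = 0.0452). In the remaining fits its limma adjusted p reached 0.291. Over the class, 4 of 8 basement membrane genes were higher, against 3.81% of all rows, and the median was 0.29 log2.

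**Figure D4:**
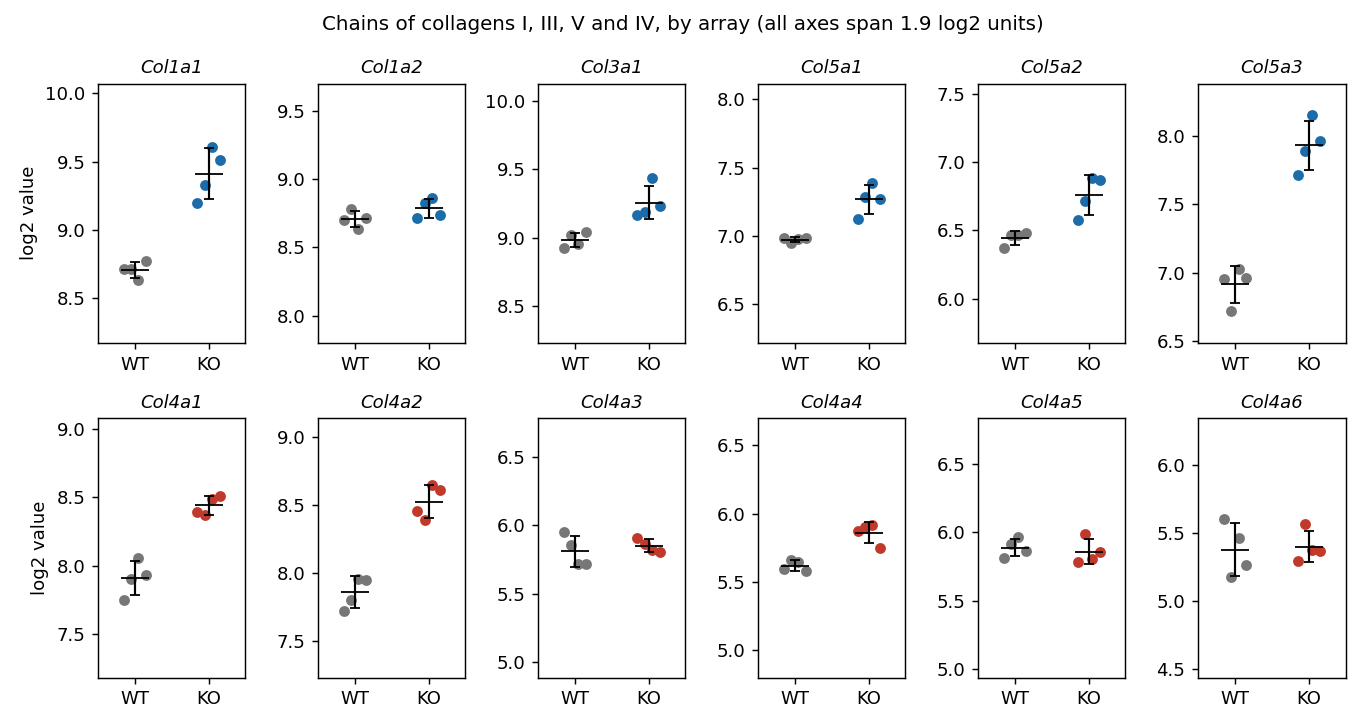
Log2 values of 12 chain genes by array, with WT in grey and KO in colour (blue for fibrillar collagens I, III and V, red for collagen IV). Points are the 4 arrays of a group in order of array number, and the black marks are the mean and SD. All panels span the same range of log2 units, so the steps can be compared by eye: large for Col5a3, Col1a1, Col4a1 and Col4a2, and flat for Col1a2, Col4a3, Col4a5 and Col4a6.

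Across all 24 pairs of chains of the same collagen type, the smallest exact permutation p was 0.0286, the smallest possible. It was reached by 13 pairs, in which WT and KO arrays did not overlap. After Benjamini-Hochberg adjustment over the 24 pairs this p was 0.0527, so no pair passed at 0.05. For these 13 pairs the number of arrays allows no smaller p, so not passing does not show that their chains moved alike. The pairs share chains, so that a single gene such as Col4a1, Col4a2 or Col5a3 enters several of them. The largest differences between KO and WT were those of Col5a1 against Col5a3 (-0.72 log2) and Col5a2 against Col5a3 (-0.71), then Col4a2 against Col4a5 (0.70). Col5a1 against Col5a2 differed by -0.02 log2 (exact permutation p = 0.743), and the chains of collagen IX by at most 0.01 log2 in size.

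No FACIT gene passed, and the 2 with the widest differences varied within the KO group. Col14a1, which encodes a fibril-associated collagen of soft connective tissue, read 7.56, 7.19, 6.95 and 7.44 in WT and 7.70, 7.46, 8.27 and 8.25 in KO. KO arrays 3 and 4 were far above WT, array 1 only slightly, and array 2 was within the WT range (0.64 log2, SE 0.19, 95% interval 0.22 to 1.06, adjusted p = 0.0719). Col12a1, a related chain, read 5.53, 5.34, 5.28 and 5.31 in WT and 5.55, 5.37, 5.79 and 5.83 in KO, where arrays 3 and 4 were again above arrays 1 and 2 (0.27 log2, SE 0.102, adjusted p = 0.145). Of the 8 fits that left out 1 array, each gene passed only in the 1 without KO array 2. There Col14a1 was at 0.79 log2 (limma adjusted p = 0.0253) and Col12a1 at 0.36 (limma adjusted p = 0.0407). In the remaining fits the limma adjusted p reached 0.179 for Col14a1 and 0.316 for Col12a1. The other 7 FACIT genes were close to 0: Col16a1 (0.05 log2), Col22a1 (0.01), the cartilage genes Col9a1 (-0.01), Col9a2 (-0.01) and Col9a3 (-0.01), Col19a1 (-0.04) and Col20a1 (-0.09). The median of the 9 FACIT genes was -0.01 log2, and over all rows 3.81% were higher.

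In the remaining class only Col8a1 rose. Collagen VIII forms open networks under endothelium and in vessel walls. Col8a1 read 6.34, 6.28, 6.42 and 6.47 in WT and 6.68, 6.56, 7.13 and 6.98 in KO (1.37-fold, 0.46 log2, SE 0.115, adjusted p = 0.0371). The means were 6.38 ± 0.086 and 6.84 ± 0.26. The groups did not overlap, and KO arrays 3 and 4 were again the highest. The call was lost without any 1 of the WT arrays or KO array 3 or 4 (adjusted p at most 0.106). Its partner chain Col8a2 did not pass (-0.06 log2, adjusted p = 0.730), and the change in the difference between the chains was 0.52 log2 with overlapping groups (exact permutation p = 0.0571).

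The 9 others of that class did not pass. Col10a1, the network collagen of growth plate cartilage, was at 0.19 log2 with KO arrays 1 and 2 (4.64 and 4.40) above arrays 3 and 4 (4.09 and 4.15), the opposite order to Col8a1. The anchoring fibril gene Col7a1 was at -0.01 log2. The transmembrane collagen genes were at 0.04 (Col13a1), 0.00 (Col17a1), -0.02 (Col23a1) and -0.06 (Col25a1), and Col26a1 and Col28a1 were at -0.04 and -0.00. The class median was -0.01 log2, and over all rows 3.81% were higher.

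Leaving out single arrays changed the count of higher genes from 10 to between 6 and 12. Over all rows, calls in either direction went from 1536 to between 913 and 1418. The collagen count was 6 without WT array 1, 3 or 4 or KO array 3. The 6 that passed in all 8 of these fits were Col1a1, Col4a1, Col4a2, Col5a1, Col5a3 and Col18a1. With KO arrays 1 and 2 as the only KO arrays, 4 genes were higher (Col1a1, Col4a1, Col4a2 and Col5a3), and with KO arrays 3 and 4 as the only ones, 12. This split was chosen after the data were seen, and the count over all rows, given below, moved the same way. In 15 of the 38 genes KO arrays 3 and 4 both lay above KO arrays 1 and 2, against 25.2% of all rows, and 8 of these 15 were among the 10 that rose.

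On the chromosomes 5 pairs of collagen genes are direct neighbours among protein-coding genes in the RefSeq gene table (GRCm38.p6). Both members rose in the pairs Col3a1 and Col5a2 (0.27 and 0.31 log2) on chromosome 1 and Col4a1 and Col4a2 (0.53 and 0.67) on chromosome 8. In Col4a4 and Col4a3 only the first passed, and in Col9a1 and Col19a1 and in Col4a6 and Col4a5 neither did.

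The promoter table held 31 windows of 29 of the 38 genes, each from 250 bases before to 50 bases after a start site, and 8 of these 29 genes were among the 10 that rose. The core letters of many nuclear receptor sites (AGGTCA, searched on both strands like every motif here) was in 7 of the 31 windows, against 16.3% of all 32851 windows of that length, and Col4a4 was the one gene among those that rose to have it. No collagen window held the RORE consensus, the extended site that Rev-erb and ROR receptors share. As searched here, this site ends in AGGTCA or GGGTCA, and it was found in 0.384% of all windows. CCAAT was in 12 of the 31 windows (37.4% of all windows), the GC box GGGCGG in 18 (35.7%) and the TATA box TATAAA in 5 (13.6%). These are matches of letters, not measured binding.

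Upstream sequences of 3 fibrillar genes are shown because the data set them apart: Col5a3 with the largest rise, Col3a1 with a small one and Col1a2, which did not pass. Capitals mark the CCAAT box, the GC box and the TATA box letters named above, on either strand. The Col5a3 stretch, chr9:20815118-20815317 on the minus strand, covers -250 to -51 relative to the start, and those of Col3a1 (chr1:45311288-45311537, plus strand) and Col1a2 (chr6:4505368-4505617, plus strand) the 250 bases before the start, from RefSeq, GRCm38.p6.
Col5a3: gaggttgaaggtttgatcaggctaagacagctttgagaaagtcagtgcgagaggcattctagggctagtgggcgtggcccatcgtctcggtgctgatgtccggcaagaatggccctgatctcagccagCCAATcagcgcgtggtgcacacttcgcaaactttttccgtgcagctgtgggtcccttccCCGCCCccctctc
Col3a1: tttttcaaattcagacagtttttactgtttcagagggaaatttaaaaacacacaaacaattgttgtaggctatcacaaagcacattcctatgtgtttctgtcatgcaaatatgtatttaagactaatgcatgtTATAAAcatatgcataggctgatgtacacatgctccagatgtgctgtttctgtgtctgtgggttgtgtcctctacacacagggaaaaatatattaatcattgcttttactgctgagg
Col1a2: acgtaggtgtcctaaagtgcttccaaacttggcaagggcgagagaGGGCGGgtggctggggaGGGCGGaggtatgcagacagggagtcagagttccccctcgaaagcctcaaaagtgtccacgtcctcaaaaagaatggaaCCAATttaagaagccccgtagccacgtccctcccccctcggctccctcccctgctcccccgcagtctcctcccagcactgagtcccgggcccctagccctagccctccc
The Col5a3 and Col1a2 stretches are rich in G and C (58.0% and 62.0%) and hold 1 CCAAT and at least 1 GC box match each. Col3a1 has 35.2% G and C, neither of these motifs, and 1 TATA box match.

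Genes that act on collagen chains were read from 5 lists, beside the shares of all rows (3.81% higher and 3.59% lower). Among 19 measured genes for folding and modification 4 were higher and 0 lower (median 0.14 log2): Creb3l1, a transcription factor known to drive collagen I genes in bone (0.66 log2, SE 0.0907, adjusted p = 0.00214), the prolyl hydroxylase gene P4ha2 (0.46, SE 0.0680, 0.00302) and the lysyl hydroxylase genes Plod3 (0.35, SE 0.0672, 0.0107) and Plod1 (0.23, SE 0.0614, 0.0462). Among 12 genes for processing and crosslinking 3 were higher and 0 lower (median 0.19 log2), namely the lysyl oxidase genes Lox (1.31, SE 0.0914) and Loxl4 (1.22, SE 0.0841) and Pcolce2, an enhancer of procollagen cleavage (0.70, SE 0.142). Fkbp10, Adamts2 and Loxl2 were on these lists too but not matched to a row with 1 symbol.

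Collagen receptors and enzymes that cut collagen were read next, beside the same shares of all rows (3.81% higher and 3.59% lower). Of 9 receptor and uptake genes 3 were higher and 0 lower (median 0.08 log2): Itga1 (0.30, SE 0.0563, adjusted p = 0.00981) and Itgb1 (0.24, SE 0.0525, 0.0195), which together make a collagen-binding integrin, and the uptake receptor Mrc2 (0.44, SE 0.0984, 0.0233). Of 12 genes of collagenases, gelatinases and their inhibitors the inhibitor genes Timp1 (0.80 log2, SE 0.142) and Timp3 (0.26, SE 0.0612) were higher and 0 were lower (median 0.20). No protease of that list passed, with Mmp2 at 0.31 log2 (adjusted p = 0.138) and Ctsk at 0.32 (adjusted p = 0.206).

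Other components of the basement membrane changed in both directions. Of 16 measured genes 5 were higher and 2 lower (median 0.06 log2), against 3.81% and 3.59% of all rows. The perlecan gene Hspg2 (0.62 log2, SE 0.0711, adjusted p = 0.000709), the nidogen gene Nid1 (0.38, SE 0.0692) and the peroxidase gene Pxdn, whose product crosslinks collagen IV (0.40, SE 0.0757), rose, and Lama1, a laminin chain gene, fell (-0.31, SE 0.0541, 0.00704).

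Some markers of cells that make collagens were also higher, where 3.81% of all rows were higher and 3.59% lower. Among 14 measured markers of fibroblasts and adipose progenitors, a list with no collagens (its member Fap is also among the collagenase genes), 4 were higher and 0 lower, and the median was 0.29 log2. Those 4 were Mfap5 (0.84 log2, SE 0.123), Dpt (0.34, SE 0.0781), Cd55 (0.56, SE 0.132) and Pi16 (0.40, SE 0.0990). The markers of this list below 0 were Dcn (-0.14), Gsn (-0.06) and Cd34 (-0.02), and none of them passed. The mean log2 value over the list ran from 8.08 to 8.41 in WT and from 8.47 to 8.68 in KO, without overlap. Among 16 endothelial markers 3 were higher and 0 lower (median 0.11 log2), with list means of 7.95 to 8.07 in WT and 8.14 to 8.22 in KO. Higher were Cldn5 (0.99, SE 0.120), Lyve1 (0.53, SE 0.130) and Pecam1 (0.20, SE 0.0519). The endothelial markers below 0 were Prox1 (-0.25), Egfl7 (-0.09), Kdr (-0.02) and Tie1 (-0.01), and none of them passed. Among 12 markers of smooth muscle and pericytes Rgs5 (0.66, SE 0.119) and Acta2 (0.89, SE 0.163) were higher and Tagln lower (-0.29, SE 0.0736), with a median of -0.01 log2 and overlapping list means (7.48 to 7.61 and 7.53 to 7.75). The values are log2 array signals with no zero, so no marker can be called absent. What part cell composition has in the collagen differences was not tested.

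**Figure D5:**
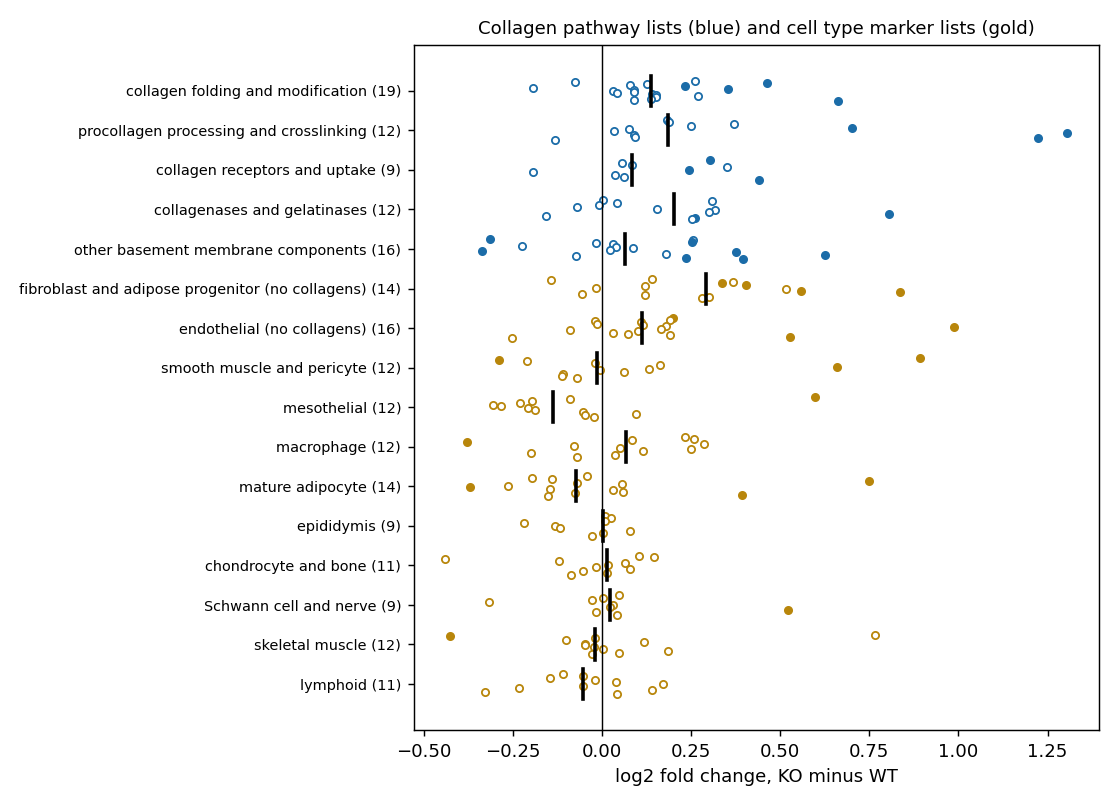
Log2 difference (KO minus WT) of each measured gene in the 5 collagen pathway lists (blue) and the 11 cell type marker lists (gold), filled where the adjusted p was under 0.05, with the list median as a black bar and the number of measured genes in brackets. The medians of the fibroblast list (0.29) and of the processing and crosslinking list (0.19) lie to the right of 0, and that of the mesothelial list (-0.14) to the left.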

How the data were processed

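Total RNA was measured in 8 samples on a whole-transcript Affymetrix mouse array. The authors deposited 1 log2 expression value per row and sample; the submitters' processing notes name affy, and how rows were background-corrected, normalized and summarized is not given in the sources used here. The values span 2.09 to 13.4, as log2 signals do, and the array medians nearly coincide, so changes are relative to the bulk of rows. Without detection calls it cannot be said which dim rows exceed background. The number of arrays limits the precision.

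The platform annotation gave 1 symbol to 20748 of 23346 rows, and these were fitted across all genes with limma 3.58.1 in R 4.3.3 (lmFit, eBayes, 2 groups, two-sided, Benjamini-Hochberg over the 20748 rows, adjusted p under 0.05). In simulated data with 200 changed rows the fit recovered 82% of those changed by 0.5 log2 and 98% of those changed by 1 log2. Of the 195 rows called there, 7.69% were false. Differences under 0.5 log2, such as those of Col3a1 and Col4a4, were not simulated. Chain pairs were compared by exact permutation of arrays (scipy 1.17.1). All 38 genes are named; array values are given for those that passed, for Col1a2 and Col15a1 by rule, and for Col10a1, Col12a1 and Col14a1, chosen after their values were seen. Up to 4 genes per further list are named by smallest p, plus Mmp2 and Ctsk, chosen after their values were seen. Classes, lists and genes were chosen with earlier results of these data known.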

Additional observations from a re-analysis of the deposited data

Results flagged for a closer look

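In 3 of the 78 groups of 4 arrays examined (38 collagen genes and Nr1d1, WT and KO), 1 array lay far from the other 3; chance gives about 1 in 20 such groups. Col18a1 read 7.19 in WT array 3 and 6.96 to 6.98 in the other WT arrays. Col5a2 read 6.37 in WT array 1 and 6.47 to 6.48 in the others. Col7a1 read 6.19 in WT array 2 and 6.33 to 6.35 in the others. No KO group of these genes met this rule.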

How the results depend on the processing

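Under quantile normalization, median centring, a filter that left out the dimmest 33.3% of rows, trend and robust eBayes, array weights, all rows tested and the mean of all rows per gene, 9 or 10 collagen genes were higher and 0 lower, and Col3a1 under quantile normalization was the single call lost. The filter kept 36 of the 38 genes. Each collagen gene has a single row, so testing all rows or averaging rows per gene could change its adjusted p but not its difference. With the replicate number as a block 8 were higher, without Col3a1 and Col4a4 (adjusted p = 0.0709 at most), and 1105 rows passed. The labels do not say whether same-numbered arrays belong together. Deviations of same-numbered arrays correlated at -0.07 to 0.13, and number 2 alone correlated best with its own number. With 4 arrays per group this cannot tell whether the numbers mark pairs. In fits that left out 1 array, 6 to 12 collagen genes were higher, 0 lower, 913 to 1418 rows passed of 1536 in all, and the median over the 38 genes was 0.00744 to 0.0591 log2. At an adjusted p under 0.10, 11 were higher (Col14a1 was added) and 2552 rows passed. With a 1.5-fold minimum, 3 were higher (Col5a3, Col1a1 and Col4a2) and 326 rows passed. With KO arrays 1 and 2 as the only KO arrays, fits chosen after the data were seen, 4 were higher and 701 rows passed, and with KO arrays 3 and 4 only, 12 and 1822. Differences near 0 have no firm sign: 6 of the 38 genes changed sign under quantile normalization and 6 under median centring, none of them among the 10. Counting higher and lower together, 36 genes of the further lists passed, and 32 under quantile normalization, beside 1536 and 1522 of all 20748 rows. The cause of these differences was not tested.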

Other observations

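Markers of other cell types that the fat pad could hold gave few calls, in both directions, where 3.81% of all rows were higher and 3.59% lower. Among 12 mesothelial markers Msln rose (0.60 log2, SE 0.0692, limma adjusted p = 0.000791) while the median was -0.14, and among 14 adipocyte markers Aqp7 (0.39, SE 0.0674) and Lep, which encodes leptin (0.75, SE 0.128), rose and Cebpa fell (-0.37, SE 0.0581), with a median of -0.07. Of 12 macrophage markers Cd14 was lower (-0.38, SE 0.073; median 0.07), of 12 skeletal muscle markers Actn3 was lower (-0.43, SE 0.10; median -0.02), and of 9 markers of Schwann cells and nerve Uchl1 was higher (0.52, SE 0.077; median 0.02). None of 9 epididymis markers (median 0.00) and none of 11 lymphoid markers (median -0.05) passed.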
